A study of Mus musculus with 20 samples.

Results

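The proteasome subunit genes were followed through 2 kinds of measurement in the adult mouse hippocampus: their 3′UTRs in GFP-AGO2 immunoprecipitates from neurons, and their mRNAs in whole hippocampal tissue in which neurons carried a microRNA sponge. Members were all genes whose symbol is Psma, Psmb, Psmc, Psmd or Psme followed by a digit, and 1 further gene of this naming family was not analysed here. The rule found 45 genes among the 23781 genes of the mRNA table and 44 genes, with 85 rows, among the 38158 3′UTR rows of the RIP table. The genes fall into the alpha ring, the beta ring, the ATPases and other base subunits, the lid, assembly chaperones and activators, and Psmc3ip and Psme3ip1 are named for a binding partner and are not subunits.

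All mice were adult C57BL/6 mice injected in the hippocampus, and every vector was an AAV5 vector with a synapsin promoter, which restricts the transgene to neurons that took up the virus. For RIP-seq, an antibody to GFP was used on lysates of 2 pooled hippocampi per library, with 2 libraries in each group. The groups were GFP-AGO2-miR124sponge (miR124sp), GFP-AGO2-miR125sponge (miR125sp), GFP-AGO2-miR292sponge (miR292sp), whose sponge addresses a microRNA used as a control, and sham-injected mice, which carry no GFP-AGO2 and give the background of the procedure. For mRNA-seq, 3 mice received GFP-miR124sp and 3 received GFP alone (GFP124), and in a second experiment 3 received GFP-miR125sp and 3 received GFP alone (GFP125). A sponge is a transcript with many imperfect sites for 1 microRNA, which it sequesters. The mRNA came from the whole tissue, so transduced neurons, other neurons and glia were measured together, and fewer cells of a type and less RNA per cell cannot be told apart.

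The proteasome degrades proteins that carry ubiquitin chains. Its core is a barrel of alpha rings, which gate the entry, and beta rings, which hold the catalytic sites; Psmb5, Psmb6 and Psmb7 encode the catalytic subunits in neurons and most other cells. A regulatory cap docks on the barrel, with a base of ATPases that unfold the substrate and a lid that removes ubiquitin, while the Psme genes encode other activators that can take the place of the cap. In neurons the proteasome trims synaptic proteins, and because the particle needs its subunits in fixed proportions, their genes are known for being expressed together.

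MicroRNAs guide AGO2 to 3′UTRs through bases 2 to 8 of the microRNA, the seed. The sequences of miR-124 and miR-292 are not shown. The miR-125 family and its match in the Psmc1 3′UTR show what such a site looks like, with the seed or its complement in capitals; the microRNAs are from RefSeq (GRCm38.p6) and the site was read from NCBIM37 by the annotated 3′UTR.
miR-125a-5p: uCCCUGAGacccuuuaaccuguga
miR-125b-5p: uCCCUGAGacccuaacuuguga
Psmc1 3′UTR: cccacagtcgtcCTCAGGGatggggagc
The Psmc1 stretch shown lies at chr12:101361406-101361433 on the plus strand, and its capitals are bases 16 to 22 of a 3′UTR of 172 bases. Of the 34 member 3′UTR rows with at least 10 counts in every library, this was the 1 row that held CTCAGGG on the transcript strand (2.94%), against 1326 of 8147 rows of all genes (16.3%). CTACCTC, the match of let-7, was in 0 of the 34 rows, against 944 of 8147 (11.6%). The members' rows are short, with a median of 206.5 bases against 1312 bases for all 8203 tested rows, and 26 of the 34 had 500 bases or fewer. A match is a description of the letters and says nothing of binding.

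Depth and marker genes were checked first. RIP libraries held 2417942 to 5072501 counts in 3′UTRs and mRNA libraries 6950522 to 27833176 counts, with the 2 shallowest mRNA libraries (GFP125 mice 14 and 15) in the same group. The labelled cell type is hippocampal neurons, but summed over 6 astrocyte markers the mRNA libraries held 2288 to 3627 CPM (counts scaled to library size), beside 3721 to 4519 CPM over 8 neuronal markers. The GFP124 mice stood apart from the other 9 mice in many of the members' mRNAs, as described below, so that the main results on miR124sp are also given against the GFP125 mice. Members with 2 transcript rows in the mRNA table had few counts: Psmd4, a ubiquitin receptor of the base, and Psmd2, a scaffold of the base, totalled 2 and 14 counts over 12 mice, and their mRNA levels, with those of Psma7, Psmd10 and Psme2, are uncertain.

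Levels per length differed between members, with beta ring genes at the top of the order and an activator and an assembly chaperone at its end. Of the 45 members, 36 reached 10 CPM in at least 1 mouse, and their levels are given per kilobase of transcript. Beta ring genes led the order, with Psmb7 at 166 ± 13.1, Psmb4 at 157 ± 17.5 and Psmb1 at 156 ± 19.5 CPM per kilobase (SD, n = 12), which overlapped each other in their ranges. The 7 beta ring genes went down to 76.2 CPM per kilobase (Psmb3). The median of the 6 ATPases was 97.3 CPM per kilobase, that of 6 measurable alpha ring genes 89.1 and that of the 8 lid genes 72.1. The lowest of the 36 were Psme4, which encodes a large activator, at 12.5 ± 1.05, and Psmd9, an assembly chaperone of the base, at 12.4 ± 0.898 CPM per kilobase, and the ranges of this pair overlapped. Psmb10, an interferon-inducible catalytic subunit of the immunoproteasome, stood at 28.0 ± 3.98 CPM per kilobase. Its partner Psmb9 had 1.31 to 3.10 CPM in the 12 mice, before any division by length. Psma8 and Psmb11, forms known from testis and thymus, stayed below 1.01 CPM in every mouse.

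The first RIP comparison asked which 3′UTRs were bound by AGO2 above the background of the procedure, by setting the miR292sp libraries against sham. Values were scaled on Gapdh and the 50 rows on either side of it in the order of raw ratios, the Gapdh scaling, which puts those rows near 1-fold. On this scale most proteasome 3′UTRs were bound less than the typical 3′UTR. Their median relative enrichment in AGO2 binding was 1.52-fold, against 2.39-fold for all 8203 tested rows, and 29 of the 34 member rows (from 31 genes) were below the median of all rows. Tested with edgeR's quasi-likelihood test, 7 member rows were higher in miR292sp than in sham (20.6%), where 59.4% of all rows were called higher, and 0 were lower, where 0.585% of all rows were called lower. The 7 were Psma3, Psme3, Psma5, Psmc6, Psmd11, Psmd8 and Psmd7. By role, 2 of 7 alpha ring rows, 0 of 7 beta ring rows, 1 of 5 ATPase rows, 3 of 9 lid rows and 1 of 3 activator rows were higher.

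Psma3, an alpha ring subunit, stood far above the other members. Its 3′UTR (ENSMUST00000160027, chr12:72095383-72097334, plus strand, NCBIM37, 1952 bases) had 1163 and 878 counts in the miR292sp libraries, against 109 and 220 counts in sham. These are 229 and 176 CPM, against 37.2 and 91.0 CPM in sham, so that the groups did not overlap on either scale, although the sham libraries differed from each other. The relative enrichment was 8.59-fold (10.0 and 7.18 in the single miR292sp libraries) and the log2 fold change 3.11 ± 0.35 (SE, adjusted p = 5.05e-07). Psma3 was the 1 member of 34 above 4-fold (2.94%), a limit that 27.2% of all rows passed. The row is longer than the whole RefSeq transcript of Psma3 in the mRNA table, which has 1420 bases.

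Psme3, which encodes the subunit of a nuclear activator, came next. Its 3′UTR of 1665 bases (ENSMUST00000019470, chr11:101183187-101184851, plus strand) had 699 and 615 counts in miR292sp and 282 and 229 counts in sham. The relative enrichment was 3.74-fold and the log2 fold change 1.90 ± 0.25 (adjusted p = 4.24e-06). In CPM the difference was smaller, with 138 and 123 in miR292sp and 96.2 and 94.7 in sham. Psme3 was not called with TMM scaling, which centres all rows (0.53 ± 0.24, adjusted p = 0.0894), nor by DESeq2 (0.56 ± 0.24, adjusted p = 0.0535).

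The other 5 called rows had smaller enrichments, and like Psme3 none of them was called with TMM scaling. Psmd11, a lid subunit, had 198 and 181 counts in miR292sp against 161 and 74 in sham, an enrichment of 2.42-fold. Psmc6, an ATPase, had 340 and 253 counts in miR292sp against 127 and 210 in sham, or 2.46-fold. The lid genes Psmd7 and Psmd8 belong to the same role as Psmd11. Psmd7 had 209 and 265 counts in miR292sp against 171 and 148 in sham, or 2.14-fold. Psmd8 had 81 and 106 counts in miR292sp against 74 and 49 in sham, or 2.23-fold. The alpha ring gene Psma5 had 81 and 74 counts in miR292sp against 45 and 42 in sham, or 2.57-fold. In CPM these 5 genes had overlapping or lower values in miR292sp. With TMM scaling (median log2 fold change of all rows -0.11, against 1.26 with the Gapdh scaling), 30 of the 32 member rows with a positive log2 fold change turned negative, 1 member row was higher (Psma3, 1.77 ± 0.32, adjusted p = 0.00032; 21.6% of all rows were higher) and 4 were lower (19.1% of all rows). Those 4 were Psmd4 (-1.61 ± 0.37, adjusted p = 0.00264), Psma7 (-1.13 ± 0.33), Psmb6 (-1.58 ± 0.55) and Psmc4 (-1.17 ± 0.42). DESeq2 called Psma3 higher and 5 rows lower, the same 4 genes and Psma4 (22.8% and 18.8% of all rows), and without the count minimum 8 of 61 member rows were higher and 1 lower, Psme4 (27.9% and 0.506% of all rows). Leaving out miR292sp library 5 reduced the 7 calls to 3 (50.8% of all rows were then higher), and leaving out miR292sp library 6 or sham library 7 reduced them to 4 (52.2% and 52.8% of all rows).

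**Figure D1:**
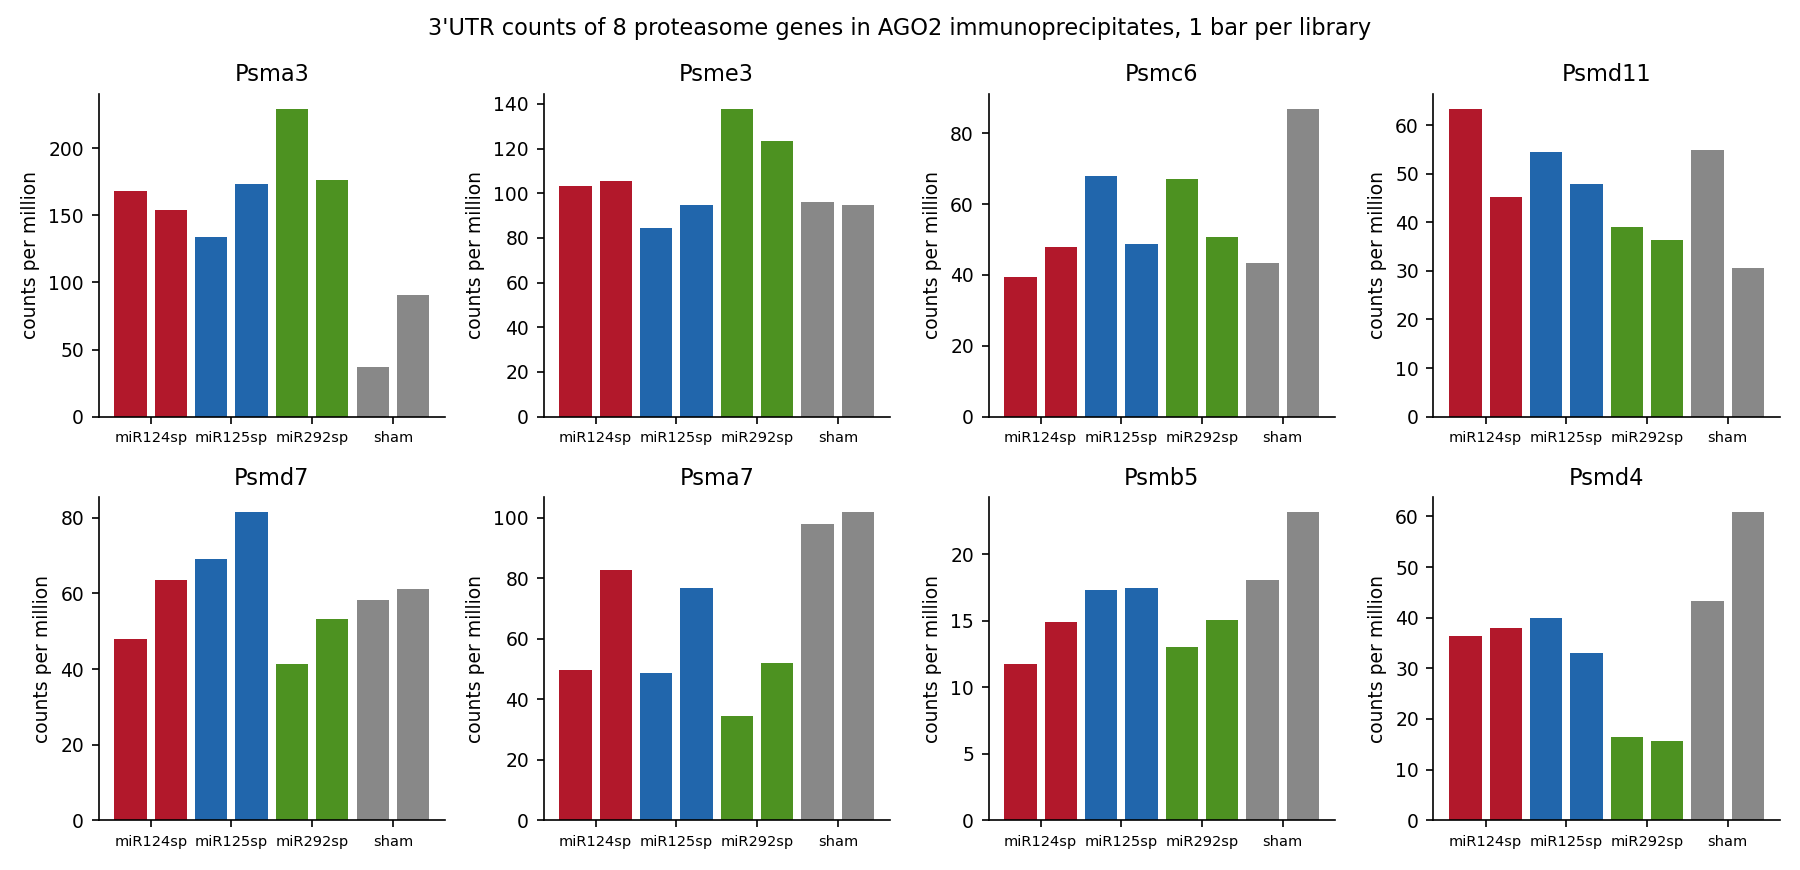
3′UTR read level, as CPM, of 8 proteasome genes (y axis, starting at 0) in the 8 RIP libraries, 1 bar per library, in the groups miR124sp, miR125sp, miR292sp and sham. Both miR292sp bars of Psma3 stand above both sham bars, and both miR292sp bars of Psmd4 and Psma7 stand below theirs.

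The catalytic beta subunits were not called in this comparison. Psmb5 (chymotrypsin-like site, 3′UTR of 72 bases) had 66 and 75 counts in miR292sp and 53 and 56 in sham, with a log2 fold change of 0.89 ± 0.46 (adjusted p = 0.106). Psmb6 (caspase-like site, 70 bases) had 24 and 42 counts in miR292sp and 38 and 71 in sham, -0.25 ± 0.57 (adjusted p = 0.725). Psmb7 (trypsin-like site, 141 bases, overlapping Nek6 on the other strand) had 76 and 98 counts in miR292sp and 51 and 65 in sham, 1.08 ± 0.48 (adjusted p = 0.0622). Of the interferon-inducible genes, the longer Psme1 row, which overlaps Fam158a on the other strand, gave 0.80 ± 0.50 (adjusted p = 0.18), while Psmb9, Psmb10 and Psme2 had no row past the count minimum.

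Above 100 bases the median enrichment rose with the length of the 3′UTR, among members as among all rows. Rows of up to 100 bases had a median of 1.53-fold and the 7 member rows of that length 1.45-fold. All rows of more than 100 and up to 200 bases had a median enrichment of 1.43-fold and the 10 member rows of that length 1.29-fold. All rows of 1001 to 2000 bases had 2.66-fold and the 5 member rows 2.42-fold. Spearman's rho between length and enrichment was 0.43 over the 34 member rows and 0.20 over all 8203, and these rows share the same 4 libraries. In every length class that held members their median was below that of all rows, a gap that was not tested. It was 1.75-fold against 1.91-fold at 201 to 500 bases, and 2.14-fold against 2.41-fold at 501 to 1000 bases. Single members ran both ways. Psma3 and Psme3 were above the median of their length class. Psma2, with a 3′UTR of 1942 bases, stood at 1.14-fold with 20 and 28 counts in miR292sp and 25 and 34 in sham.

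**Figure D2:**
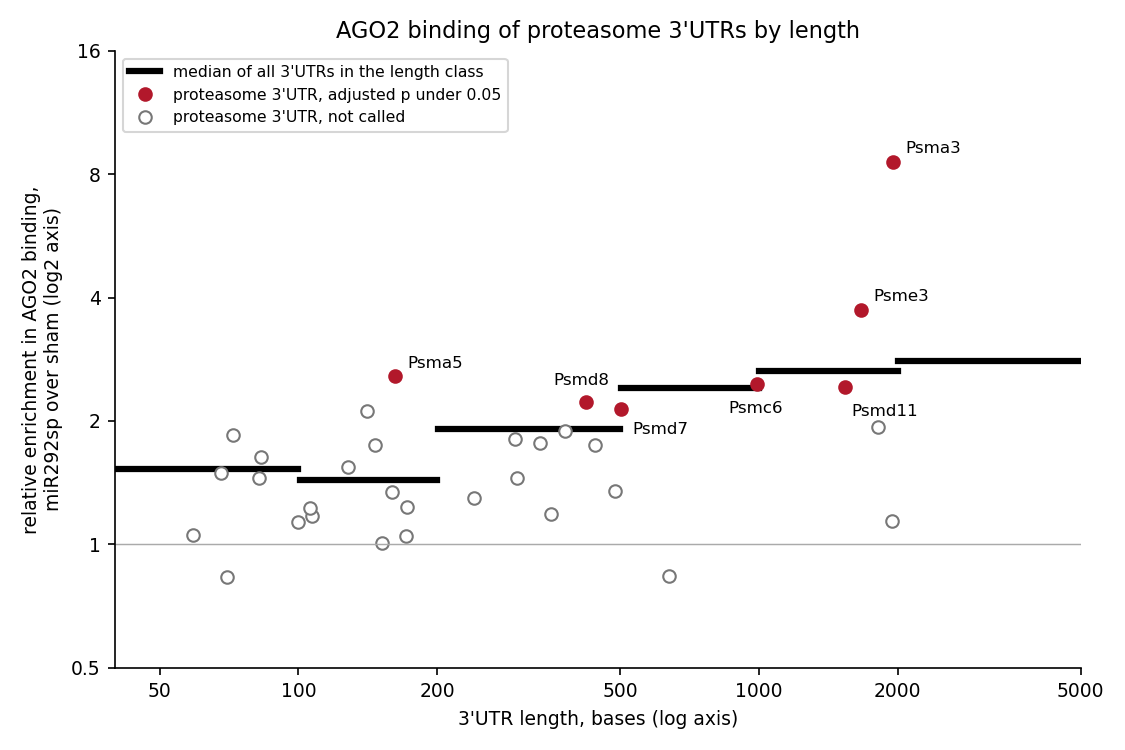
Relative enrichment in AGO2 binding, miR292sp over sham (y axis, log2), against 3′UTR length in bases (x axis, log) for the 34 member rows, filled where the adjusted p was under 0.05, with black bars for the median of all rows in each length class. Psma3 at 8.59-fold is the 1 member above 4-fold, and 26 of the 34 members have 500 bases or fewer, where the medians of all rows lie between 1.43-fold and 1.91-fold.

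The other RIP comparisons asked whether AGO2 binding changed when a sponge sequestered miR-124 or miR-125, with miR292sp as the control. No member was called in either. Under miR124sp, 0 of 34 member rows were higher and 0 lower, where 5.1% and 3.46% of all rows were called. An unadjusted p under 0.05 was found for 7 of the 34, beside 2151 of all 8203 rows. Under miR125sp, 0 were higher and 0 lower, where 1.18% and 0.232% of all rows were called. An unadjusted p under 0.05 was found for 5 of the 34, beside 1406 of all 8203 rows. DESeq2 called 1 member, Psmd4, higher and 0 lower under miR124sp (6.42% and 7.47% of all rows), and 0 higher and 0 lower under miR125sp (2.39% and 2.17% of all rows). The median log2 fold change of the members was 0.57 under miR124sp and 0.50 under miR125sp, against 0.04 and 0.03 for all rows, and both comparisons share the miR292sp libraries. With the Gapdh scaling, 0 members were higher and 3 lower under miR124sp (0.207% and 50% of all rows) and 0 higher and 2 lower under miR125sp (0.219% and 38.2%). The lower rows were Psma3 and Psme3 in both comparisons and Psmc6 under miR124sp. The medians were then -0.42 and -0.28 for the members and -0.97 and -0.75 for all rows, so the sign of the members' median turned with the scaling.

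Psmd4 came nearest to a call. Its 3′UTR (chr3:94836627-94837265, minus strand, 639 bases) had 133 and 112 counts under miR124sp, against 83 and 78 counts under miR292sp, with a log2 fold change of 1.22 ± 0.37 (adjusted p = 0.0502). The counts were 134 and 117 under miR125sp (1.18 ± 0.37, adjusted p = 0.123), and 127 and 147 in sham. Psma3 had 616 and 453 counts under miR124sp and 450 and 614 under miR125sp, against 1163 and 878 under miR292sp, and its log2 fold changes against miR292sp were -0.32 ± 0.30 and -0.42 ± 0.30 (adjusted p = 0.532 and 0.499). Psmc1, the member with the miR-125 match shown above, had 54 and 68 counts under miR125sp and 41 and 77 under miR292sp, 0.58 ± 0.54 (adjusted p = 0.61). The catalytic subunit Psmb6 had 40 and 68 counts under miR124sp and 28 and 38 under miR125sp, against 24 and 42 under miR292sp (1.35 ± 0.55 and 0.52 ± 0.55, adjusted p = 0.128 and 0.663). Psmb5 had 43 and 44 counts under miR124sp and 58 and 62 under miR125sp, against 66 and 75 under miR292sp. Its log2 fold changes were -0.07 ± 0.45 and 0.30 ± 0.44 (adjusted p = 0.942 and 0.769). The miR292sp libraries were the deepest. In CPM Psmb5 had 11.7 and 14.9 under miR124sp and 17.3 and 17.5 under miR125sp, against 13.0 and 15.0 under miR292sp. Psmb7 and Psme1 were not called either, with adjusted p from 0.234 to 0.888 over both comparisons. Astrocyte markers differed between these libraries: summed over 6 genes they were at 43491 to 43921 CPM under miR124sp, 34572 to 37043 under miR125sp, 14885 to 15654 under miR292sp and 62489 to 62951 in sham. Their part in the members' values was not tested.

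The mRNA comparison of the miR-124 experiment asked how transcript levels changed in mice with the miR-124 sponge. In miR124sp mice 10 of 14 core particle genes passed the test as lower than in the GFP124 mice of the same experiment, while most ATPases were not called. These roles also differ in transcript length, with medians of 949 bases in the beta ring, 1217 in the alpha ring and 1528 in the ATPases. Role and length are thus mixed in this pattern, and the trend with length is given below. Of 41 members past the expression filter, 16 fell (39%) and 1 rose (2.44%), where 10.7% of all 12971 tested genes fell and 12.6% rose. The median log2 fold change of the members was -0.25, against -0.01 over all genes, and 35 of the 41 values were negative. The log2 fold changes of the 16 ran from -0.54 to -0.27.

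By role, 6 of 7 alpha ring genes fell (Psma1 to Psma6; the seventh, Psma7, is one of the genes with uncertain counts). In the beta ring 4 of 7 fell (Psmb1, Psmb2, Psmb4 and Psmb6). Among the ATPases 1 of 6 fell, Psmc6. In the lid 3 of 8 fell, namely Psmd6, Psmd8 and Psmd14, the last of which encodes the enzyme that cuts ubiquitin from the substrate. Of the activators Psme1 fell and Psme4 rose, and of 3 assembly chaperones none was called (Psmd5, Psmd9 and Psmd10). Psme2b, which is nearly identical in sequence to Psme2, also fell, and reads of this pair cannot be told apart with certainty.

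**Figure D3:**
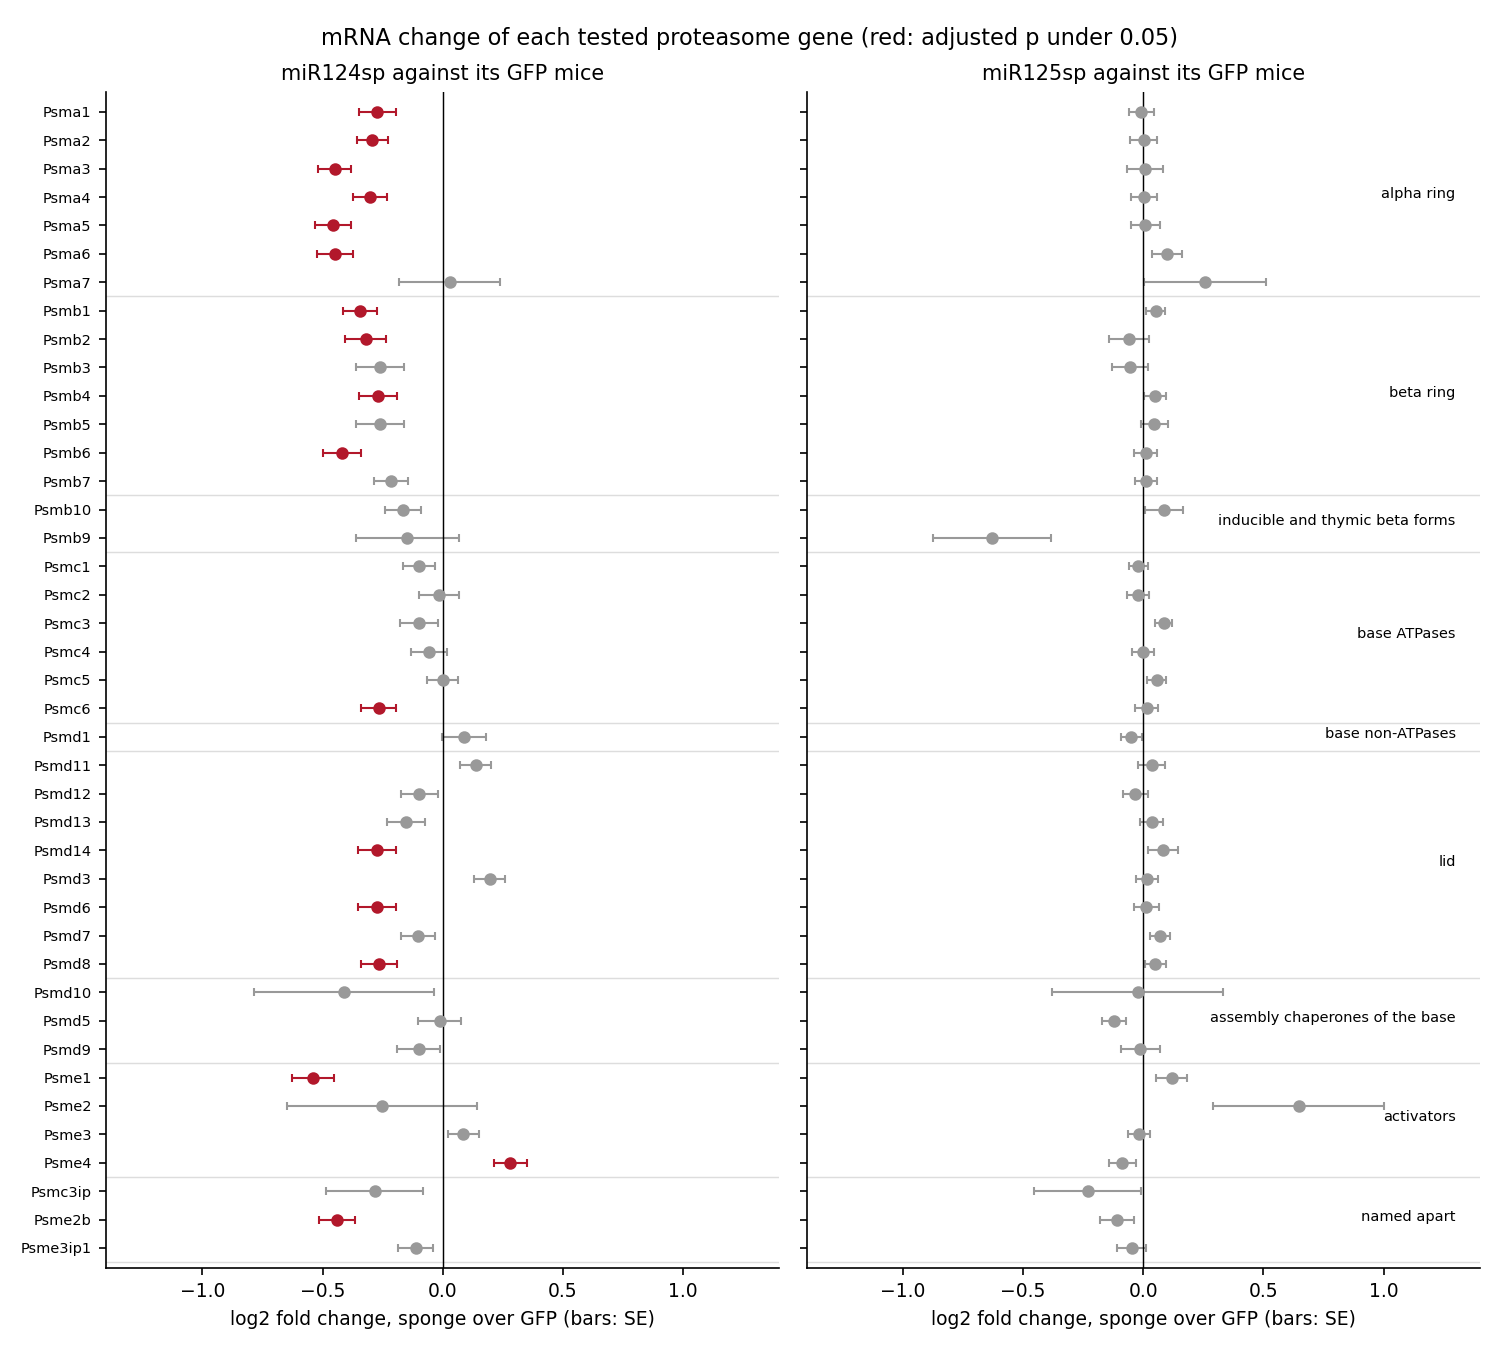
log2 fold change in mRNA with its SE (x axis) of each tested proteasome gene (y axis, grouped by role) for miR124sp over GFP124 (left) and miR125sp over GFP125 (right), red where the adjusted p was under 0.05. On the left, 16 genes lie significantly below 0 and Psme4 above it, and on the right no gene is called.

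Psme1, an interferon-inducible activator subunit, showed the largest fall of a called member. It had 37.5, 36.9 and 42.2 CPM in miR124sp mice, against 60.6, 52.2 and 58.0 CPM in GFP124 mice, a log2 fold change of -0.54 ± 0.09 (adjusted p = 0.00488). Psma5 had 50.7, 57.9 and 53.9 CPM in miR124sp mice, against 78.3, 71.5 and 74.9 CPM in GFP124 mice (-0.46 ± 0.08, adjusted p = 0.00501). Psma6 had 97.6, 99.2 and 108 CPM in miR124sp mice, against 146, 131 and 142 CPM in GFP124 mice (-0.45 ± 0.07, adjusted p = 0.00506). The groups did not overlap in any of these genes.

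Psma3, the member with the strongest AGO2 binding, was among the fallen genes, with 67.6, 65.1 and 71.5 CPM in miR124sp mice, against 96.9, 93.2 and 90.9 CPM in GFP124 mice (-0.45 ± 0.07, adjusted p = 0.00431). Psme2b had 24.3, 25.4 and 26.0 CPM in miR124sp mice and 36.1, 33.2 and 34.1 CPM in GFP124 mice (-0.44 ± 0.08). Psmb1, a non-catalytic beta subunit, had 145, 153 and 156 CPM in miR124sp mice and 204, 185 and 192 CPM in GFP124 mice (-0.34 ± 0.07). Of the others among the 10 largest changes, Psmb2 had 71.9, 73.5 and 79.3 CPM in miR124sp mice and 102, 84.6 and 96.4 CPM in GFP124 mice (-0.32 ± 0.09). Psma4 had 98.2, 99.6 and 102 CPM in miR124sp mice and 128, 116 and 129 CPM in GFP124 mice (-0.30 ± 0.07). Psma2 had 83.1, 85.8 and 88.0 CPM in miR124sp mice and 109, 102 and 106 CPM in GFP124 mice (-0.29 ± 0.07). All 16 fallen members had their 3 miR124sp values below their 3 GFP124 values. Over the members that passed the filter in the 12-mouse table the count was 20 of 42 (47.6%), where 21% of all genes had this order.

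Of the catalytic subunits, Psmb6 passed the test and Psmb5 and Psmb7 did not. Psmb6 had 93.2, 89.0 and 102 CPM in miR124sp mice, against 134, 118 and 130 CPM in GFP124 mice (-0.42 ± 0.08, adjusted p = 0.00734). Psmb5 had 72.5, 70.6 and 89.1 CPM in miR124sp mice and 98.9, 86.3 and 94.7 CPM in GFP124 mice, so that 1 miR124sp mouse lay within the GFP124 range (-0.26 ± 0.10, adjusted p = 0.0876). Psmb7 had 147, 153 and 161 CPM in miR124sp mice and 186, 171 and 183 CPM in GFP124 mice without overlap (-0.22 ± 0.07, adjusted p = 0.0525). The interferon-inducible Psmb10 gave -0.17 ± 0.07 (adjusted p = 0.131), Psmb9 -0.15 ± 0.22 (adjusted p = 0.655) and Psme2 -0.25 ± 0.39 (adjusted p = 0.676, uncertain counts).

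Psme4 was the 1 member that rose. It had 93.9, 87.4 and 88.2 CPM in miR124sp mice, against 75.7, 77.4 and 70.7 CPM in GFP124 mice (0.28 ± 0.07, adjusted p = 0.0179). Psmd3, a lid scaffold, had 184, 175 and 168 CPM in miR124sp mice and 153, 153 and 158 CPM in GFP124 mice (0.19 ± 0.07, adjusted p = 0.0599). The ATPase gene Psmc5 had 188, 182 and 180 CPM in miR124sp mice and 187, 180 and 188 CPM in GFP124 mice, with a log2 fold change of -0.00 ± 0.06.

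**Figure D4:**
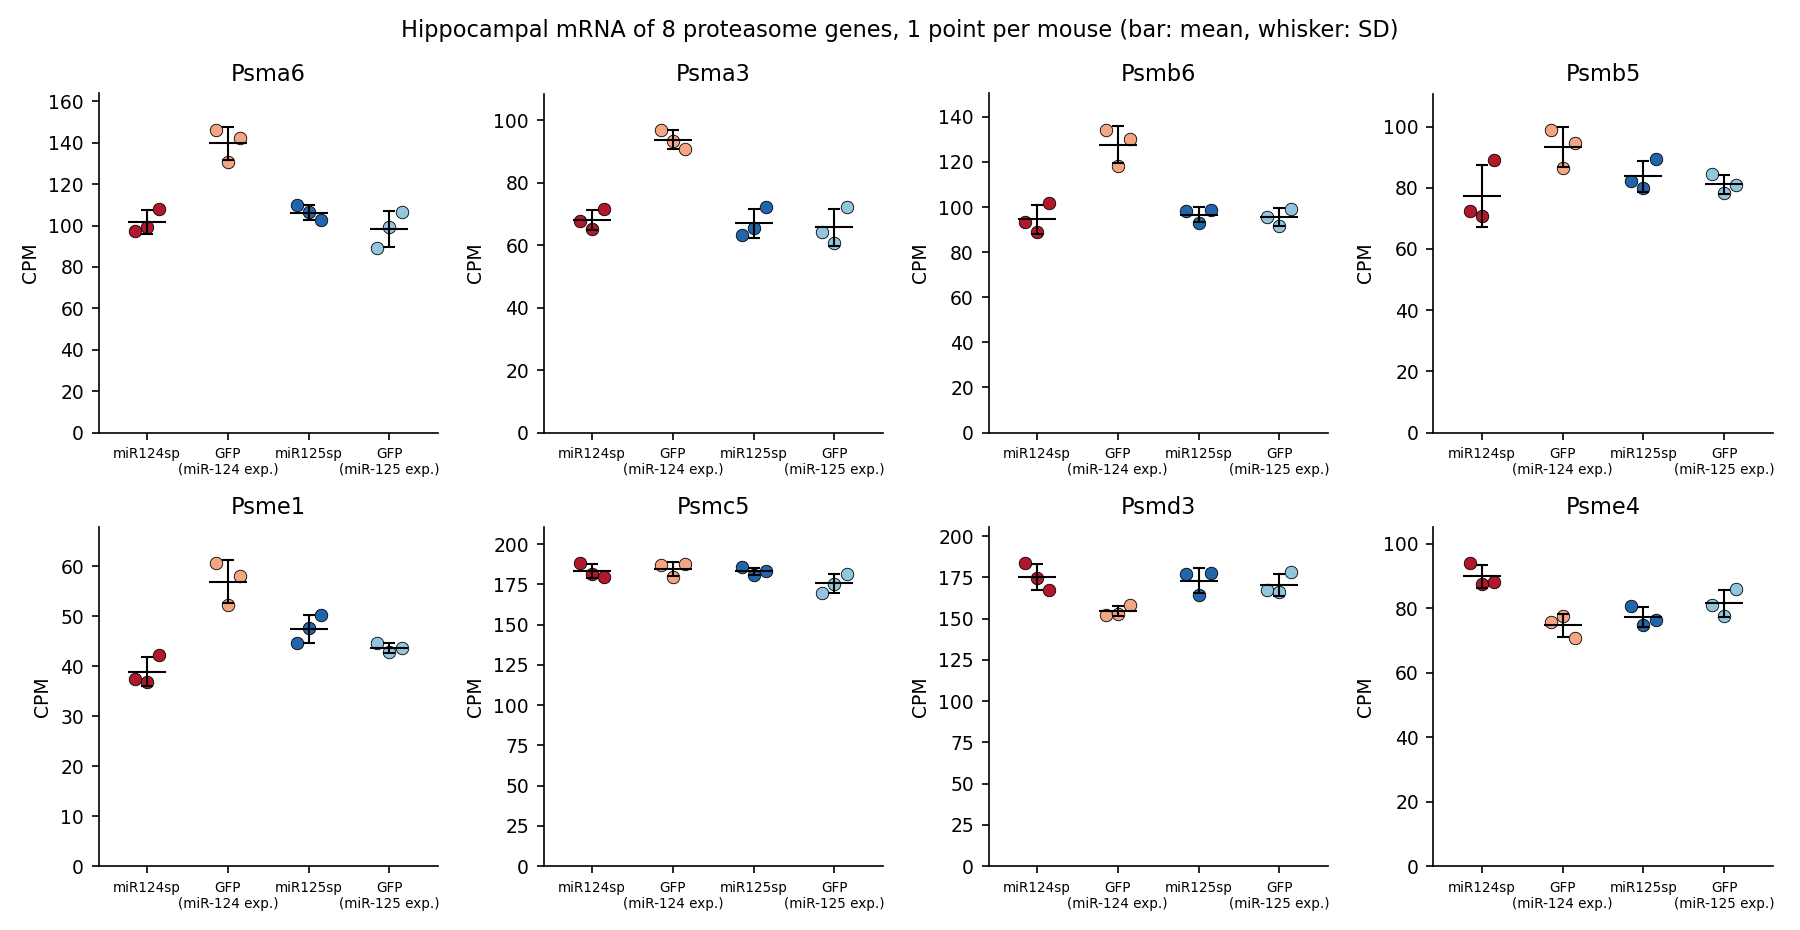
CPM of 8 proteasome genes (y axis, starting at 0) in miR124sp, GFP124, miR125sp and GFP125 mice, 1 point per mouse, with the mean as a bar and the SD as a whisker. For Psma6, Psma3 and Psmb6 the 3 GFP124 mice lie above all 9 other mice, and the miR124sp mice lie among or near the mice of the miR-125 experiment.

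The size of the count rested on several mice. Without GFP124 mouse 15 the 16 falls became 6, where 4.02% of all genes fell. Without GFP124 mouse 8 they became 9 (9.1% of all genes), and without miR124sp mouse 14 or 2 they became 7 (5.11% and 3.93% of all genes). Psme4 was no longer called without GFP124 mouse 15 or 8 or miR124sp mouse 14 or 2. Psme1, Psma5, Psma3, Psma6, Psme2b and Psmb6 stayed below an adjusted p of 0.05 whichever mouse was left out. The file headers carry the suffix Comb, whose meaning is not stated, on all 3 GFP124 libraries and, of the miR124sp libraries, on 14 only. With this suffix as a term of the model 6 members fell (4.8% of all genes fell) and 0 rose (6.4% of all genes rose), the 6 being Psme1, Psma5, Psma3, Psma6, Psme2b and Psmb1. DESeq2 called 17 members lower (9.97% of all genes) and 2 higher, Psme4 and Psmd3 (12.7% of all genes). Within the libraries with the suffix, the summed alpha ring was at 492 CPM in the miR124sp mouse and at 625 to 684 CPM in the 3 GFP124 mice, and the miR124sp mice without it had 509 and 526 CPM.

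The control mice of this experiment differed from those of the other. Of the 16 members that fell, 15 had every GFP124 mouse above all 9 other mice, and Psmb2 was the exception. These 16 had been picked as higher in GFP124 than in miR124sp mice, so part of this order was given beforehand. The share of all genes with this order was not counted. The alpha ring sum was 492, 509 and 526 CPM in miR124sp mice, 684, 625 and 670 CPM in GFP124 mice, 521, 519 and 524 CPM in miR125sp mice and 496, 484 and 547 CPM in GFP125 mice. In a fit over the 12 mice, GFP124 over GFP125 gave 18 members higher and 1 lower (42.9% and 2.38%), where 16.3% of all genes were higher and 16.3% lower. Set against GFP125 in place of GFP124 in this fit, miR124sp mice had 0 members lower and 1 higher, where 2.73% and 2.97% of all genes were called, and the members' median log2 fold change was -0.03. The 1 was Psmb10 (0.29 ± 0.08, adjusted p = 0.0379), with 38.2, 36.2 and 37.6 CPM in miR124sp mice and 28.2, 31.8 and 31.1 CPM in GFP125 mice. Psma6 then gave 0.04 ± 0.07 (adjusted p = 0.802) and Psme1 -0.17 ± 0.08 (adjusted p = 0.211). The GFP125 mice belong to the other experiment, so the sponge and the experiment cannot be told apart in this setting. In the same way, miR125sp mice set against GFP124 had 18 members lower and 3 higher (Psmd11, Psmd3 and Psme3), where 18.6% and 16.7% of all genes were called.

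A trend with transcript length ran through all genes of the same contrast. Genes of up to 800 bases had a median log2 fold change of -0.43 in miR124sp over GFP124, those of 801 to 1000 bases -0.28, those of 1501 to 2000 bases -0.08 and those above 3000 bases 0.10. The members are short, with a median of 1428 bases against 2761.5 bases for all genes, and followed a similar course, with the widest gap in the class just above 1000 bases. The 10 members of 801 to 1000 bases had a median of -0.28, the 5 in the next longer class -0.42 (all genes -0.20) and the 11 of 1501 to 2000 bases -0.10. All 16 fallen members had 847 to 1564 bases, so none of the 11 tested members above 1600 bases was among them. The limit of 1600 bases lies just above the longest of the 16, and the share of all genes above it that fell was not counted. Psme4, which rose, is the longest with 6442 bases. Spearman's rho between length and log2 fold change was 0.66 over the 41 members and 0.38 over all 12971 genes, which share the same 6 libraries.

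When the trend was taken out with an offset for each library, 3 members fell and 2 rose, where 6.18% and 8.42% of all genes did, and the members' median was -0.02. The 3 were Psma3 (-0.32 ± 0.06, adjusted p = 0.0116), Psma5 (-0.28 ± 0.07, adjusted p = 0.0347) and Psme1 (-0.30 ± 0.08, adjusted p = 0.0324). The 2 were the lid genes Psmd3 (0.23 ± 0.06, adjusted p = 0.0423) and Psmd11 (0.21 ± 0.06, adjusted p = 0.0388). By role, 2 of 7 alpha ring, 0 of 7 beta ring and 0 of 6 ATPase genes were then lower. Their median log2 fold changes were -0.11, -0.02 and 0.04. Against the GFP125 mice the length trend was small, from 0.07 in genes of up to 800 bases to -0.03 above 3000 bases.

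**Figure D5:**
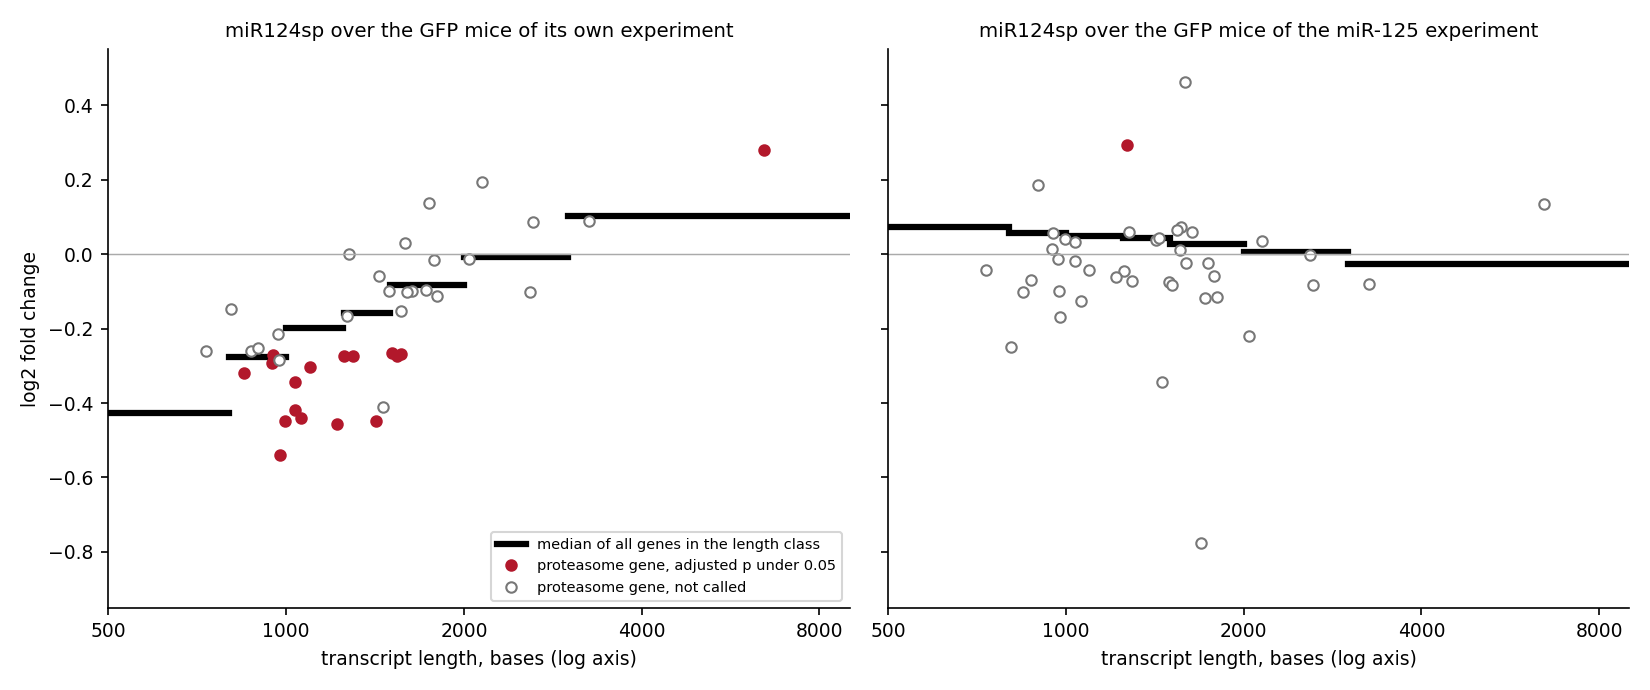
log2 fold change (y axis) of proteasome genes against transcript length in bases (x axis, log), with black bars for the median of all genes in each length class, for miR124sp over GFP124 (left) and miR124sp over GFP125 (right). On the left the members follow the rising medians of all genes, from -0.28 at 801 to 1000 bases to 0.10 above 3000 bases, and on the right the medians of all genes stay between -0.03 and 0.07 and 1 member is called.

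Markers of other cells differed in the same contrast. The 6 oligodendrocyte markers summed to 697 to 947 CPM in miR124sp mice and 494 to 523 CPM in GFP124 mice, with 1 marker of the 6 at 0 in both. The 6 astrocyte markers summed to 2445 to 2684 CPM in miR124sp mice and 3105 to 3627 CPM in GFP124 mice, and the 6 microglial markers to 420 to 430 CPM in miR124sp mice and 461 to 535 CPM in GFP124 mice. In GFP125 mice the astrocyte sums were 2573 to 2844 CPM and the microglial sums 418 to 458 CPM, which overlapped those of miR124sp mice. The oligodendrocyte sums of GFP125 mice, 427 to 594 CPM, did not overlap those of miR124sp mice. The sums of the 8 neuronal markers overlapped, at 3805 to 4406 CPM in miR124sp mice and 3721 to 4337 CPM in GFP124 mice. Single neuronal markers ran both ways, with 3 of 7 tested higher and 1 lower, beside 12.6% and 10.7% of all genes. Gad1 (0.63 ± 0.13), Grin1 (0.54 ± 0.08) and Syt1 (1.00 ± 0.27, at most 1.91 CPM in these mice) rose, and Camk2a fell (-0.44 ± 0.13). The part of cell composition in the members' values was not tested.

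In the miR-125 experiment no member was called. Of 41 members 0 rose and 0 fell, where 0.0554% and 0.15% of all 12638 genes were called by edgeR. At an unadjusted p under 0.05 there were 3 members by edgeR and 0 by DESeq2, beside 1659 and 1015 of all 12638 genes. The lowest adjusted p of a member was 0.305 by edgeR. The median log2 fold change was 0.01, against -0.01 for all genes. The 36 members above 20 CPM in GFP125 mice lay within 0.12 of 0 on the log2 scale. Psma6 had 110, 106 and 103 CPM in miR125sp mice and 89.3, 99.1 and 107 CPM in GFP125 mice. Psmb5 had 82.1, 79.8 and 89.4 CPM in miR125sp mice and 84.3, 78.2 and 81.0 CPM in GFP125 mice (0.05 ± 0.06). The groups overlapped in both genes, as they did in the other catalytic subunits. Psmb6 had 98.1, 92.9 and 98.9 CPM in miR125sp mice and 95.6, 91.6 and 99.4 CPM in GFP125 mice, and Psmb7 gave 0.01 ± 0.05. Psme1 had 44.7, 47.6 and 50.3 CPM in miR125sp mice and 44.7, 42.7 and 43.7 CPM in GFP125 mice (0.12 ± 0.06, adjusted p = 0.466).

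The interferon-inducible members are given beside their pathway. Psmb9 had 1.31 CPM in miR125sp mouse 24 and 1.63 CPM in mouse 6, against 3.10, 2.20 and 2.57 CPM in GFP125 mice, and miR125sp mouse 9 also lay below the 3 GFP125 mice (-0.63 ± 0.24, adjusted p = 0.305). Psmb10, with 30.4, 31.7 and 35.1 CPM in miR125sp mice and 28.2, 31.8 and 31.1 CPM in GFP125 mice, gave 0.09 ± 0.08 (adjusted p = 0.692). Among 9 interferon-response genes, 5 were tested and 2 fell in miR125sp mice, Ifit3 (-0.94 ± 0.15, adjusted p = 0.0409) and B2m (-0.41 ± 0.06, adjusted p = 0.0329), which encodes the light chain of the class I molecules that present peptides made by the proteasome. With the length offsets 1 of the 5 fell. In miR124sp mice against GFP124, 1 of 5 fell, also Ifit3 (-0.47 ± 0.14, adjusted p = 0.0408), beside 10.7% of all genes.

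The effects of both sponges were compared in 1 model over the 12 mice. Of 42 members, 14 had a lower effect of miR124sp than of miR125sp (33.3%) and 1 a higher effect (2.38%), where 7.06% and 7.42% of all 13268 genes were called. The difference was -0.67 ± 0.11 for Psme1 (adjusted p = 0.00177), -0.57 ± 0.10 for Psma6 (adjusted p = 0.00274) and 0.35 ± 0.09 for Psme4 (adjusted p = 0.0149). For the lid enzyme Psmd14 it was -0.38 ± 0.10, with 94.5, 105 and 104 CPM in miR124sp mice, 131, 113 and 125 CPM in GFP124 mice, 104, 106 and 98.3 CPM in miR125sp mice and 91.3, 91.5 and 105 CPM in GFP125 mice. It was -0.44 ± 0.09 for Psmb6, -0.32 ± 0.12 for Psmb5 (adjusted p = 0.0893) and -0.24 ± 0.08 for Psmb7 (adjusted p = 0.0589). With the length offsets the 14 lower calls became 1, Psme1, and 0 were higher (2.47% and 2.77% of all genes). Leaving out GFP124 mouse 15, GFP125 mouse 14 or 15, miR124sp mouse 14 or 2, or any of the miR125sp mice (24, 6 and 9) reduced the 14 to 7 or 8, where 4.29% to 5.66% of all genes were lower.

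Other genes of the pathway were taken from lists of assembly factors, partners, shuttles, regulators and ubiquitin genes, and are read beside the 12.6% of all genes that rose and the 10.7% that fell in miR124sp mice. In these mice, Pomp, which guides the assembly of the beta ring, fell (-0.43 ± 0.07, adjusted p = 0.00492) and was 1 of 4 tested assembly genes called. Sem1, a small lid subunit outside the naming rule, fell (-0.33 ± 0.08, adjusted p = 0.0133), and Ecpas, an adaptor of the proteasome, rose (0.21 ± 0.06, adjusted p = 0.0425), the 2 of 6 partners that were called. Of 6 shuttle genes, which carry ubiquitinated proteins to the proteasome, 2 rose, Rad23b (0.32 ± 0.07, adjusted p = 0.0142) and Ubqln2 (0.27 ± 0.08, adjusted p = 0.0355). Of 5 ubiquitin and segregase genes 1 rose, Vcp (0.31 ± 0.07, adjusted p = 0.0175), which encodes the ATPase that extracts substrates. Neither of the 2 tested regulators was called. With the length offsets, 0 of 4 assembly genes, 0 of 6 partners and 0 of 2 regulators were called. Then 1 of 6 shuttle genes and 1 of 5 ubiquitin and segregase genes rose, beside 8.42% of all genes. Set against GFP125, and in miR125sp mice against GFP125, none of these lists had a gene called. In the RIP libraries, 5 of 7 shuttle rows were higher in miR292sp than in sham, among them Ddi2 at 6.44-fold and Ubqln2 at 4.70-fold, and 2 of 3 assembly rows, beside 59.4% of all rows. With TMM scaling 2 shuttle rows were higher and 1 lower, and 0 assembly rows were called (21.6% of all rows were higher and 19.1% lower).

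Promoters of the members were searched for TGACNNNGC, the core of the element through which Nfe2l1 is known to raise proteasome genes, on both strands of the window around each RefSeq start (GRCm38.p6). It was present in 6 of 42 member promoters (14.3%), against 12.4% of all 32851 promoters. Psmb5, Psmd9 and Psmd12, which were not called in miR124sp mice, also had the motif and are not shown. The windows of Psmb6 and Psmc6, which fell in miR124sp mice, and of Psme4, which rose, are shown with the motif in capitals on its own strand.
Psmb6 promoter: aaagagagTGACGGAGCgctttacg
Psmc6 promoter: gcaatgccTGACTTAGCtactggct
Psme4 promoter: tcttctggTGACGCTGCagccgcag
Counted from the start site, the motif begins at -9 in Psmb6, where it lies on the sense strand. In Psmc6 and Psme4 it lies antisense to the gene. Its most upstream base, the last capital shown, is at -227 in Psmc6 and at -7 in Psme4. Its share among members is near that of all promoters.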

How the data were processed

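Members, gene lists and tests were chosen with earlier results of these data known. The authors' deposited files hold raw read counts, per 3′UTR of an Ensembl transcript for 8 RIP libraries and per RefSeq transcript for 12 mRNA libraries, with feature lengths. The submitters' processing notes name STAR, mm10 and edgeR, whereas the study's methods describe mm9, so 3′UTR coordinates are those of GENCODE M1 on NCBIM37 (mm9), matched by transcript. Annotated and deposited lengths were equal for 84.7% of matched rows. Symbols were found for 98.0% of 3′UTR rows and 98.7% of RefSeq rows, whose counts were summed per gene, and rows without a symbol held 0.849% of mRNA counts. RIP rows needed 10 counts in every library, and mRNA genes passed filterByExpr.

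edgeR 4.0.16 (R 4.3.3) quasi-likelihood fits used all 8 RIP libraries, or the 6 or 12 mice of a contrast, with Benjamini-Hochberg adjustment over all rows tested and a threshold of 0.05. Fold changes are log2 with SE. miR292sp against sham was scaled on Gapdh and 50 rows on either side in the order of raw ratios, and all other fits used TMM. CPM of mRNA are over TMM-scaled totals of the 12 mice, and CPM of RIP libraries are over plain library totals. Length offsets came from a lowess (span 0.3) of log2 CPM on transcript length, an alternative chosen after seeing the data, as was the exchange of control mice. The fits of miR124sp against miR292sp in RIP-seq and against GFP124 in mRNA-seq were run on simulated counts with TMM scaling. The other contrasts, the Gapdh scaling and the length offsets were not simulated. No pair of replicates agreed within sampling noise (chi-square per degree of freedom 3.49 to 20.7). RIP libraries are pools of 2 hippocampi and mRNA libraries are single mice, so p-values measure the spread between them. Whether counting used strand was not stated. Members with full values were those called in a comparison (at most 10 by size), Psmb5, Psmb6, Psmb7 and, where measured, Psmb9, Psmb10, Psme1 and Psme2, and others named were chosen after their values were seen. Alternatives were DESeq2 1.42.0, the other scaling, no count filter, the top RefSeq transcript, the header suffix Comb as a term and leaving out each library.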

Additional observations from a re-analysis of the deposited data

Results flagged for a closer look

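For 15 members the effect of miR124sp on mRNA differed from that of miR125sp in the test of the difference itself (edgeR, 12 mice, adjusted p under 0.05). The log2 difference was -0.67 for Psme1, -0.57 for Psma6, -0.48 for Psma5, -0.48 for Psma3, -0.44 for Psmb6, -0.41 for Psmb1, -0.38 for Psmd14, -0.35 for Psme2b, -0.34 for Psmb4, -0.33 for Psmd8, -0.32 for Psma4, -0.31 for Psma2, -0.30 for Psmd6, -0.30 for Psmc6 and 0.35 for Psme4. In this contrast the GFP124 mice enter on 1 side. GFP124 over GFP125 gave 18 of 42 members higher (42.9%) and 1 lower (2.38%), where 16.3% of all genes were higher and 16.3% lower.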

How the results depend on the processing

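For miR292sp against sham, the 7 higher and 0 lower member rows became 1 and 4 with TMM scaling and 1 and 5 with DESeq2, and 1 was lower without the count filter. With TMM 30 of the 32 positive log2 fold changes of member rows turned negative, down to -1.34. Among these were Psmb5 (-0.47), Psme1 (-0.57 in its longer row), Psma5 (-0.0026), Psmc6 (-0.044), Psmd11 (-0.12), Psmd8 (-0.22), Psmd7 (-0.26) and Psmb7 (-0.26). With DESeq2 those turning negative included Psmc6 (-0.017), Psmd11 (-0.094), Psmd8 (-0.19), Psmd7 (-0.24) and Psmb7 (-0.24). These follow from the scaling, which moved all rows. With the Gapdh scaling 3 members were lower under miR124sp and 2 under miR125sp, against miR292sp, and DESeq2 called 1 higher under miR124sp. For miR124sp against GFP124, DESeq2 gave 2 higher and 17 lower, the header suffix as a term 0 higher and 6 lower, and length offsets 2 higher and 3 lower with Psmb5 at 0.017 and Psmb7 at 0.030. The GFP125 mice gave 0 lower, with Psma3 at 0.037, Psma6 at 0.039, Psmb1 at 0.034, Psma2 at 0.013 and Psmb10 at 0.29. For miR125sp, the GFP124 mice in place of GFP125 gave 3 higher and 18 lower, with Psmb10 at -0.38, Psmb6 at -0.40, Psmb7 at -0.20 and Psme1 at -0.26. For the difference between the sponges, length offsets left 0 higher and 1 lower, with Psma2 at 0.0026. Exchanged controls and length offsets were chosen after seeing the data. Where the values changed in these mRNA settings, the cause was not tested. Leaving out 1 library gave 3 to 8 higher rows for miR292sp against sham, 0 to 2 higher and 6 to 19 lower genes for miR124sp, and 7 to 19 lower genes for the difference. Of 643 values of single members under all alternatives, 497 kept direction and side of the threshold, 115 lost the threshold, 8 gained it and 23 reversed. Precision is limited by 2 libraries or 3 mice in a group and by 3′UTR counts often under 100. No paired analysis was possible because the groups compared share fewer than 2 replicate numbers.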

Other observations

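Members with 2 RefSeq rows had few counts in the mRNA table. Psmd4, Psmd2, Psmd10, Psme2 and Psma7, the 5 members with 2 rows, totalled 2, 14, 146, 177 and 514 counts over the 12 mice, while Psmc5, with 1 row, totalled 37182. Of the members with 1 row, Psmb11, Psma8 and Psmb9 also stayed at or below 453 counts. The 3′UTR table held 4 rows of Psmd4, of which 1 passed the minimum with 78 to 147 counts per library, so the gene was detected there. In that table Psma1, Psmc5, Psmd2, Psmd10, Psme2, Psme4 and Psmb9, each with 2 or 3 rows, had at least 1 library at 0 counts in every row. Levels of these genes cannot be read from the rows at or near 0.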
